A study of Homo sapiens with 2 samples.

Results

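The Fanconi anaemia, homologous recombination and damage checkpoint genes were examined in cells of the established line ACHN, which came from a human kidney cancer and is labelled as clear cell carcinoma. The genes were chosen by name with earlier results of these data known, so their excess over all genes is a description and not independent support. Of the 37 listed genes, 32 had a transcript cluster (the set of probes the array assigns to a gene) that carried their symbol alone. They were read among 18417 genes measured the same way. One culture had been transfected with an shRNA against Kindlin-2, the integrin adaptor encoded by FERMT2, and the other with a control shRNA, and both were grown in serum-containing medium with the selection drug G418. The labels give neither a clone, a time after transfection nor the shRNA sequence. Each culture gave 1 Affymetrix Human Gene 1.0 ST array, so there was no replicate, no test could be made, and the differences below describe these 2 arrays. Whether the spread between repeated cultures would overlap them was not measured. No cluster carried the single symbol FANCA, FANCD2, BRCA2 or RBBP8, and these genes were not analysed here. ATRIP, the partner of ATR, shared its cluster with TREX1, and that joint cluster stood at 7.14 in the Kindlin-2 shRNA array and 6.75 in the control array.

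The Fanconi pathway repairs DNA strands that have been crosslinked to each other. A core complex attaches ubiquitin to the FANCI-FANCD2 clamp, and USP1 later removes it. While the ubiquitin is attached, nucleases open the crosslink. The resulting break is repaired by homologous recombination, in which the ends are resected, the BRCA proteins and further mediators prepare the ends for strand exchange, and the joined molecules are dissolved or cut. ATM, ATR and their effector kinases hold the cell cycle meanwhile. Many genes of this machinery are transcribed mainly in the S and G2 phases of the cell cycle.

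As a group these genes were higher in the Kindlin-2 shRNA array. Of the 32 genes, 28 were above the control value (FANCG by less than the printed digits show), where 46.7% of all genes were, and their median difference was 0.33 on the log2 scale against -0.01 over all genes. At least 1.5-fold higher were 10 of the 32 (31.2%), against 3.77% of all genes, and none was 1.5-fold lower, against 3.81%. At least 2-fold higher were 5, against 1.01% of all genes, and none was 2-fold lower, against 0.896%. At a threshold of 0.32 on the log2 scale, 16 were higher and 2 lower, where 11.2% and 12.6% of all genes were. The list was not shifted evenly, since the other 14 genes lay within 0.32 of the control. The 5 genes past 2-fold were BRIP1, BLM, EXO1, CLSPN and XRCC2. They act at different steps: a helicase bound to BRCA1, a junction-dissolving helicase, a resection nuclease, the mediator of CHEK1 activation and a recombination mediator.

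**Figure D1:**
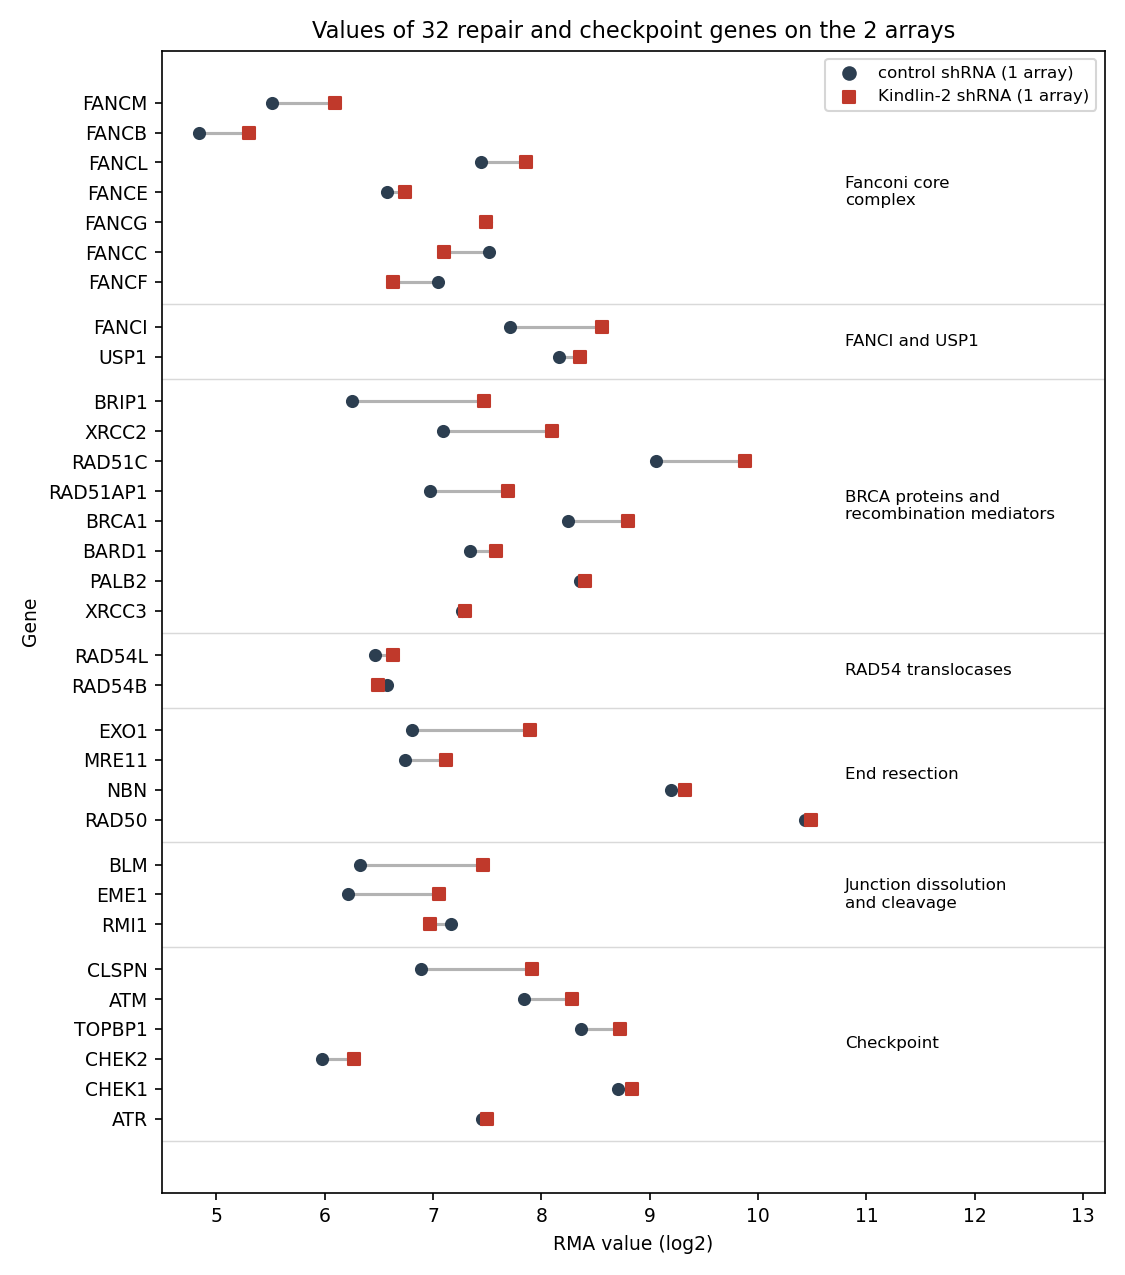
RMA values (log2, horizontal axis) of the 32 repair and checkpoint genes, grouped by role, with circles for the control shRNA array and squares for the Kindlin-2 shRNA array. In 28 genes the square lies to the right (in FANCG the symbols coincide), most clearly in BRIP1, BLM, EXO1, CLSPN and XRCC2, and it lies to the left in FANCF, FANCC, RMI1 and RAD54B.

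The core complex, which recognises the crosslink and carries the ubiquitin ligase, differed in both directions. Of its 7 measured members 5 were above 0 and 2 below, with a median of 0.17 (46.7% of all genes were above 0). FANCG, equal on both arrays as printed, counts here as above 0. FANCM, the translocase that anchors the complex to DNA, had values of 6.10 in the Kindlin-2 shRNA array and 5.51 in the control array. Its difference of 0.59 lay at the 1.5-fold threshold itself. FANCB, part of the catalytic module, stood at 5.30 and 4.84, and FANCL, the ubiquitin ligase, at 7.85 and 7.44. The adaptor FANCF, in contrast, was lower in the Kindlin-2 shRNA array, at 6.63 against 7.04 in the control array, and FANCC, which forms a subcomplex with FANCF and FANCE, was lower at 7.10 against 7.51. These 2 decreases, of 0.42 and 0.41 on the log2 scale, were the largest among the 32 genes. FANCG (7.49 on both arrays) and FANCE (6.75 and 6.57) lay close to the control, so no single direction describes the core complex.

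The substrate of the core complex stood higher. FANCI, which pairs with FANCD2 in the clamp that receives ubiquitin, stood at 8.56 in the Kindlin-2 shRNA array and 7.71 in the control array, a difference of 0.85 or 1.8-fold. USP1, the enzyme that removes the ubiquitin, differed little, with 8.35 and 8.16.

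BRCA proteins and recombination mediators were above the control in 8 of 8 measured genes, where 46.7% of all genes were, with a median of 0.63. At least 1.5-fold higher were 4 of them, against 3.77% of all genes. BRIP1, the helicase FANCJ that binds BRCA1, had the largest difference of all 32 genes. It stood at 7.47 in the Kindlin-2 shRNA array and 6.25 in the control array, a difference of 1.22 or 2.33-fold, and ranked 97 among the increases of 18417 genes. Its control value, like those of BLM and EME1, was dim (under 6.52, the median value over both arrays), which makes the fold less certain. XRCC2, a mediator of strand exchange, was 2.01-fold higher, at 8.10 against 7.09. RAD51C, which works in one assembly with XRCC2, stood at 9.88 and 9.06, or 1.77-fold higher. RAD51AP1, which stimulates strand invasion, stood at 7.69 and 6.97, or 1.65-fold higher. BRCA1 itself was at 8.79 in the Kindlin-2 shRNA array and 8.25 in the control array, 1.46-fold higher and just short of 1.5-fold. Its ubiquitin ligase partner BARD1 differed by 0.24, with 7.58 and 7.34. PALB2, the bridge between BRCA1 and BRCA2, was nearly level at 8.40 and 8.36, as was XRCC3, a partner of RAD51C, at 7.30 and 7.27. The group thus ranged from 0.03 to 1.22, with BRIP1, XRCC2 and RAD51C at its upper end.

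The RAD54 translocases, which help to search for and open the homologous duplex, lay near the control. RAD54L stood at 6.63 and 6.46 and RAD54B at 6.49 and 6.58 in the Kindlin-2 shRNA and control arrays, differences of 0.17 and -0.09. All of these values lay close to 6.52.

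Among the end resection genes, the exonuclease EXO1 stood apart from the complex that starts resection. EXO1 was at 7.89 in the Kindlin-2 shRNA array and 6.81 in the control array, 2.12-fold higher. The nuclease MRE11 stood at 7.12 and 6.74, the ATPase RAD50 at 10.49 and 10.44, and the adaptor NBN at 9.33 and 9.19. Their differences were 0.38, 0.06 and 0.14, all below 1.5-fold.

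Genes that finish recombination divided in the same way. BLM, the helicase deficient in Bloom syndrome, was at 7.46 in the Kindlin-2 shRNA array and 6.32 in the control array, 2.2-fold higher. EME1, the regulatory subunit of the MUS81 nuclease, was at 7.06 and 6.22, 1.79-fold higher. RMI1, which works in one complex with BLM, was lower, at 6.97 against 7.17 in the control array.

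All 6 measured checkpoint genes were above the control, where 46.7% of all genes were, with a median of 0.33. Only CLSPN passed 1.5-fold upward, as 3.77% of all genes did. CLSPN encodes claspin, which brings CHEK1 to ATR at stalled forks. It stood at 7.91 in the Kindlin-2 shRNA array and 6.89 in the control array, 2.03-fold higher. A dimmer cluster of CLSPN, not used for its value, stood at 7.16 and 5.70. The other checkpoint genes differed less. ATM was at 8.28 and 7.84, the ATR activator TOPBP1 at 8.72 and 8.37, and CHEK2 at 6.27 and 5.97. CHEK2 was thus under 6.52 on both arrays. CHEK1 was at 8.84 and 8.71 and ATR at 7.49 and 7.45, differences of 0.13 and 0.05. With the median of its 50 nearest genes on the chromosome subtracted, ATR differed by -0.01. The mediator claspin therefore stood higher while both kinases it connects were nearly level.

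**Figure D2:**
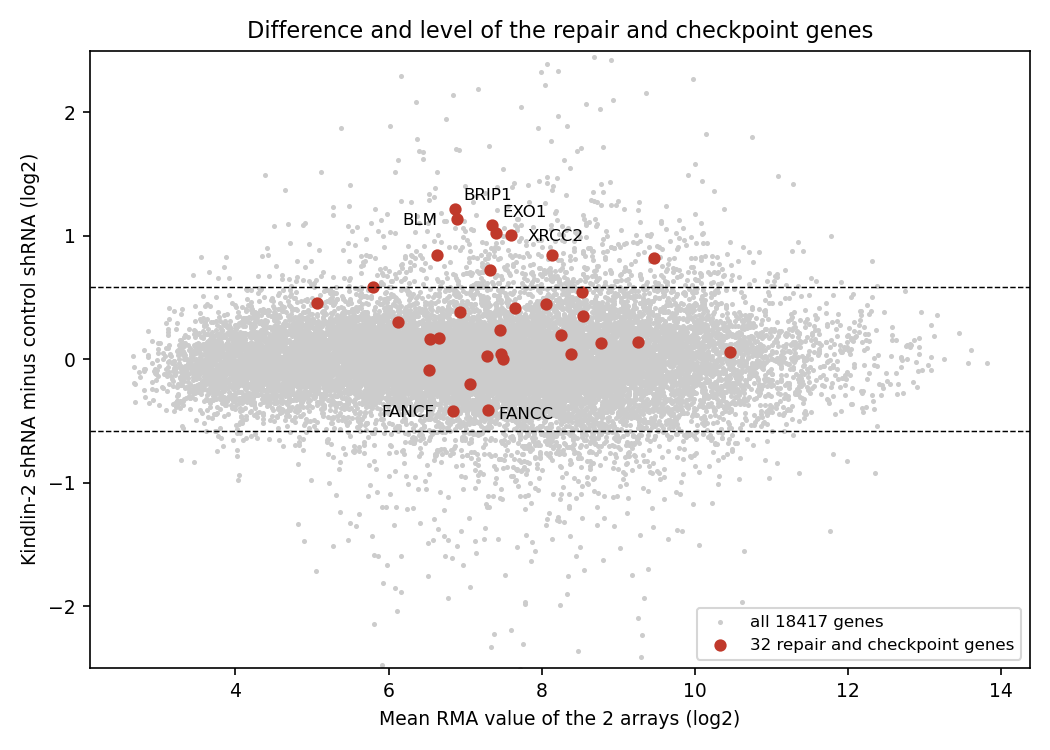
Difference between the Kindlin-2 shRNA and control shRNA arrays (log2, vertical axis) against the mean of both values (log2, horizontal axis), in grey for all 18417 genes and in red for the 32 repair and checkpoint genes. The dashed lines mark 1.5-fold, 10 red points lie on or above the upper line and none below the lower, and 11 genes outside the list lie beyond the vertical range.

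The difference, taken with its sign, did not follow the level of the gene on the array. Across the 32 genes, which share the same 2 arrays and are not independent, Pearson's r between difference and mean value was -0.06 and Spearman's rho -0.03. With the filter that keeps a gene whose higher value reached 6.52, 29 of the 32 genes passed, and FANCB, FANCM and CHEK2 did not. BRIP1, BLM, EME1 and RAD54L passed only through the Kindlin-2 shRNA array, and RAD54B only through the control array. Among the genes kept by that filter, 5.1% had passed 1.5-fold upward and 5.23% downward, as 9 and 0 of the 29 repair and checkpoint genes had. RMA compresses differences between dim values, which can understate a fold, and noise in a single array can move it either way. The folds of FANCB, FANCM and CHEK2, and those of BRIP1, BLM and EME1, whose control values lay under 6.52, are therefore uncertain.

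The promoters of the genes past 2-fold are shown because these members had the largest differences. That of RMI1 is shown because it was lower and carries an E2F motif, as 3 of those 5 do. RMI1 differed by -0.20, but by -0.01 with the median of its chromosome subtracted. RefSeq windows of 300 bases (250 before to 50 after the annotated start, build GRCh38.p14) existed for 34 of the 37 listed genes. They lie at chr17:61863479-61863778 (minus strand), chr15:90717096-90717395 (plus strand), chr1:241847954-241848253 (plus strand), chr1:35769929-35770228 (minus strand), chr7:152676092-152676391 (minus strand) and chr9:83980555-83980854 (plus strand). Of several windows of a gene, the one with an E2F motif is printed, or else the window listed earliest. Each is written 5′ to 3′ on the gene's strand, and capitals mark matches to the E2F motif TTTNNCGC or the CHR element TTTGAA on either strand.
BRIP1: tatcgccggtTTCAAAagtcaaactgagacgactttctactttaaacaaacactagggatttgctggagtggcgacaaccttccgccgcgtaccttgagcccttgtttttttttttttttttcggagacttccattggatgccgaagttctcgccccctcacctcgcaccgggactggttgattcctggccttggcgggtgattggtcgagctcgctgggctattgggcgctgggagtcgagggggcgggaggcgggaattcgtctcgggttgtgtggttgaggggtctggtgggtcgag
BLM: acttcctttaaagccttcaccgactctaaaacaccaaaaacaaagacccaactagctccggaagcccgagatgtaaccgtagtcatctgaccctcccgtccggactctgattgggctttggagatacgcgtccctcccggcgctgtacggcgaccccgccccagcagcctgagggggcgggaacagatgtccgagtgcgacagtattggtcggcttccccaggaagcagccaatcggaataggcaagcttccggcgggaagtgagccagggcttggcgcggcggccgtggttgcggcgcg
EXO1: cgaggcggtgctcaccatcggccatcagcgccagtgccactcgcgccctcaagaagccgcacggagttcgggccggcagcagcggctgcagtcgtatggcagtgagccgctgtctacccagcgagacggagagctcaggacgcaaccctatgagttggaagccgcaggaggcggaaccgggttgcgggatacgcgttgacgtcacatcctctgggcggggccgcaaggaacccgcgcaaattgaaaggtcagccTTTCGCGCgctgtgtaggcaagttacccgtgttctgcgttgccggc
CLSPN: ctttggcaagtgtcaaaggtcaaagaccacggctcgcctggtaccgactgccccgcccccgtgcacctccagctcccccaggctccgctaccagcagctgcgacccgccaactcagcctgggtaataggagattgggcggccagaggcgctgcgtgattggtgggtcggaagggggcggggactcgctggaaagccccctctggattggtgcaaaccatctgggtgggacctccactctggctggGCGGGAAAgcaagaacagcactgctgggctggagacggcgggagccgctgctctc
XRCC2: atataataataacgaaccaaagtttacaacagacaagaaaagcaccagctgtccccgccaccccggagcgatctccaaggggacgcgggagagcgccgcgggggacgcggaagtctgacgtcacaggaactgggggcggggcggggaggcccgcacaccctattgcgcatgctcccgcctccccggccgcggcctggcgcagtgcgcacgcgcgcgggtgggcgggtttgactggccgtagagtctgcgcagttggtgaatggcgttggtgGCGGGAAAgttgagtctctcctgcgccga
RMI1: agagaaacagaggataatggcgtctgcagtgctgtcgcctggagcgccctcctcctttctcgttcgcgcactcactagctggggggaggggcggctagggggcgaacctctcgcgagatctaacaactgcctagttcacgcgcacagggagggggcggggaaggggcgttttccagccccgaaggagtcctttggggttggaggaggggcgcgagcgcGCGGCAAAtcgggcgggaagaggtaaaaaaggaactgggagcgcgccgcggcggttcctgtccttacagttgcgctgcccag
E2F factors drive genes of the S phase. The CHR element is a site of the DREAM complex, a repressor in quiescent cells. Other MuvB complexes act at it later in the cycle. The E2F motif was present in the windows of EXO1, CLSPN, XRCC2 and RMI1, starting at bases 255, 246, 272 and 219 of the window, whose base 250 is the last before the annotated start. The windows of BRIP1 and BLM held no match to these letters, and BRIP1 held the CHR element at base 11. BRIP1, BLM and CLSPN each held 3 CCAAT boxes (letters CCAAT, either strand), and the other 3 windows held none.

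Over all genes with a window, the E2F motif was in 26.5% of the 34 listed genes (9 genes) and in 8.23% of 27305 genes of any kind, noncoding genes included, when any window of a gene counted. Per window, 6.89% of 35116 windows held it. The CHR element was in 11.8% of the listed genes and 18.2% of all genes, and the CCAAT box in 52.9% and 39.7%. The 7 measured genes with an E2F motif had a median difference of 0.35, and the 22 without had 0.31. At least 1.5-fold higher were 3 of the 7 and 6 of the 22. FANCC, with a motif in 1 of its windows, was among the lowest. A match describes letters in a window and not a bound site.

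Partners that work in one complex, or in related complexes that share a subunit, often differed by different amounts. The sets of partners compared here were put together from textbook complexes after the values were seen. In the dissolution complex BLM differed by 1.14, while the topoisomerase TOP3A (0.02), RMI2 (-0.02) and RMI1 (-0.20) stayed near or below the control. In the MUS81 nucleases the subunit EME1 differed by 0.84, the catalytic subunit MUS81 by 0.09 and the alternative subunit EME2 by -0.04. Among RAD51C and its partners, XRCC2 differed by 1.01 and RAD51C by 0.82, RAD51B by 0.39 and XRCC3 by 0.03. XRCC3 pairs with RAD51C in a complex apart from that of XRCC2 and RAD51B. In these 3 sets the highest and lowest gene lay 1.33, 0.88 and 0.98 apart on the log2 scale. The gaps of 0.88 (EME1 to EME2) and 0.98 (XRCC2 to XRCC3) run between genes that do not share a complex.

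The Fanconi ubiquitin cycle showed a similar division. FANCI (0.85) and UBE2T (0.75), the ubiquitin-conjugating enzyme that serves FANCL, stood highest. FANCL differed by 0.42, while USP1 (0.19) and its activator WDR48 (-0.09) stood lowest. In the BRCA1-A complex, which binds ubiquitin chains at breaks, ABRAXAS1 differed by 0.48, but UIMC1 (-0.27) and the deubiquitinase BRCC3 (-0.38) were below the control. All 3 fork protection genes were above the control: CLSPN differed by 1.02, TIPIN by 1.04 and TIMELESS by 0.54. Partners lay closest together in BRCA1-BARD1 (2 genes), 0.31 apart, and in MRE11-RAD50-NBN (3 genes), 0.33 apart. Sets with fewer genes tend to have smaller gaps, so the gaps of sets of unlike size are not directly comparable. The 9-1-1 clamp and its loader, which act upstream of ATR, ranged from -0.18 (HUS1 and RAD9A) to 0.33 (RAD1).

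**Figure D3:**
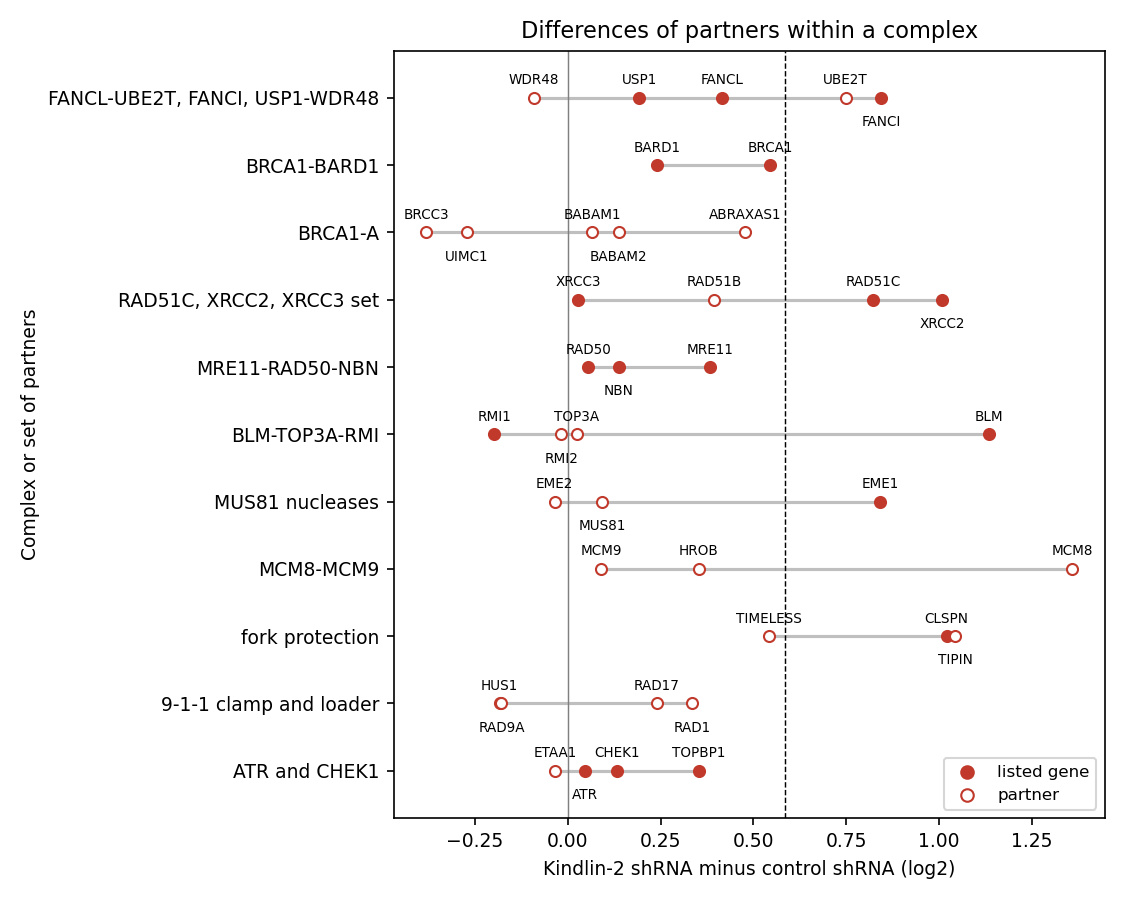
Difference between the Kindlin-2 shRNA and control shRNA arrays (log2, horizontal axis) for partners of 11 complexes or sets, with filled points for genes of the list and open points for their partners, and the dashed line at 1.5-fold higher. BLM (1.14), EME1 (0.84) and MCM8 (1.36) stand far to the right of their partners, while the fork protection genes all lie at 0.54 or above.

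Further genes of the same pathways, taken from a list of 55, had a smaller median. Of the 51 with values 34 were above 0 and 17 below, where 46.7% of all genes were above 0. Their median was 0.12. At least 1.5-fold higher were 8 and lower none, against 3.77% and 3.81% of all genes. MCM8, a helicase that acts with MCM9 in recombination, stood highest. It was at 10.93 in the Kindlin-2 shRNA array and 9.57 in the control array, 2.57-fold higher, whereas MCM9 differed by 0.09. MCM8 lies on chromosome 20, where its 50 nearest genes had a median of 0.17. TIPIN was at 7.62 and 6.58, or 2.06-fold higher, and SFR1, a cofactor of strand exchange, at 6.71 and 5.79, or 1.89-fold higher. The other 5 past 1.5-fold, named after their values were seen, were the polymerase POLQ of alternative end joining (0.77), UBE2T, the nucleases DNA2 (0.70) and GEN1 (0.65), and the kinase WEE1 (0.70), which holds back entry into mitosis. The control values of SFR1 and POLQ lay under 6.52, which makes their folds less certain. Lowest of the list was SWI5, at 6.99 and 7.48, a difference of -0.49, or -0.19 with the median of its 50 nearest genes subtracted.

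Lists of other repair pathways had medians between -0.06 and 0.14. End joining genes had a median of 0.14 over 10 genes, close to that of the further genes above, and the ligase cofactor XRCC4 (1.6-fold higher) was the only one past 1.5-fold. Mismatch repair genes had a median of -0.06 over 5 genes, with none past 1.5-fold. Base excision repair genes had a median of 0.01 over 17. In that list the glycosylase NEIL3 was 2.02-fold higher, while the glycosylases UNG and MBD4 were 1.55-fold and 1.52-fold lower. UNG lies on chromosome 12 and differed by -0.49, short of 1.5-fold, with the median of its 50 nearest genes subtracted. Nucleotide excision repair genes had a median of 0.02 over 14, and the damage sensor XPC was 1.7-fold lower. XPC and DDB2 are also in the p53 list. Damage response targets of p53 had a median of 0.01 over 18 genes, 9 above 0 and 9 below. GADD45A and the death receptor FAS were 1.88-fold and 1.66-fold higher and XPC lower. The cell cycle inhibitor CDKN1A was nearly level at 9.74 and 9.70, and MDM2 stood at 11.64 and 11.35 (both named after their values were seen).

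Cell cycle genes moved with the repair genes. At least 1.5-fold higher were 13 of 34 replication genes and 22 of 29 mitosis genes, against 3.77% of all genes. The replication genes had a median of 0.51 and the mitosis genes one of 0.86. Both medians lay above the 0.33 of the repair and checkpoint genes, which share no gene with these lists. PCNA, RRM2 and GINS1 stood highest in the replication list (2.17-fold, 2.02-fold and 2.02-fold) and NUF2, AURKA and TPX2 in the mitosis list (2.56-fold, 2.41-fold and 2.26-fold). PCNA, GINS1, AURKA and TPX2 lie on chromosome 20, among neighbours with medians of 0.17, 0.07, 0.11 and 0.16. With these subtracted they differed by 0.95, 0.95, 1.16 and 1.01. Genes associated with quiescence had a median of -0.25 over 9 genes. The inhibitor CDKN1B was at 9.26 in the Kindlin-2 shRNA array and 10.35 in the control array, 2.13-fold lower, and TOB1 and CDKN2B were 1.88-fold and 1.64-fold lower. CDKN2B lies on chromosome 9. It differed by -0.65 with its neighbours' median subtracted and by -0.52, short of 1.5-fold, with its chromosome's median subtracted. The part of cell cycle phase in the differences of the repair genes was not tested, and in these bulk samples more cells in S and G2 and more RNA per cell cannot be told apart.

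Regulators of E2F transcription differed among themselves, with a median of 0.14 over 19 genes. The repressor E2F7 was at 10.44 in the Kindlin-2 shRNA array and 8.28 in the control array, 4.47-fold higher, and ranked 14 among all increases. The pocket protein RBL1 (2.15-fold) and the activator MYBL2 (1.96-fold) were also higher, and the repressor E2F8, the paralog of E2F7, was 1.54-fold lower. RBL1 and MYBL2 lie on chromosome 20 among neighbours at 0.15 and 0.20, and differed by 0.95 and 0.77 with these subtracted. The activator E2F1, also named with its value known, was at 7.71 and 7.32.

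**Figure D4:**
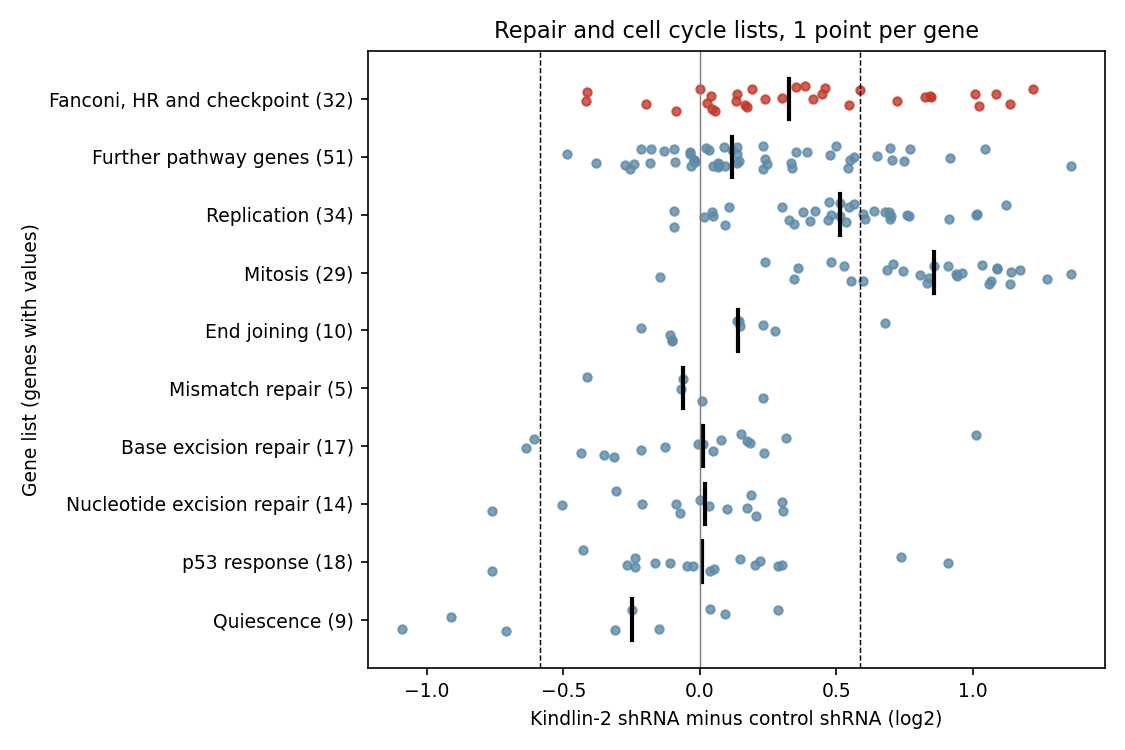
Difference between the Kindlin-2 shRNA and control shRNA arrays (log2, horizontal axis) for each gene of 10 lists, with a black bar at each list's median, dashed lines at 1.5-fold and the number of genes with values in brackets. The repair and checkpoint genes (median 0.33) lie between the further pathway genes (0.12) and the replication (0.51) and mitosis genes (0.86), while the end joining list has a median of 0.14 and the 3 excision and mismatch repair lists are centred near 0.

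Position in the genome was compared because whole chromosomes were shifted between these arrays. The 50 nearest measured genes of each repair or checkpoint gene had medians between -0.23 and 0.09. With that median subtracted, 28 of the 32 genes were above 0, the median was 0.35 and 9 were at least 1.5-fold higher, FANCM being the gene that was lost. Several genes were higher against a lower neighbourhood. RAD51AP1 on chromosome 12 lay among neighbours at -0.23 and differed by 0.95 after subtraction, and XRCC2 on chromosome 7 among neighbours at -0.14 and differed by 1.15. The 4 genes on chromosome 17 (BRCA1, BRIP1, RAD51C and EME1) were all higher, with a median of 0.83, while the 1067 genes of that chromosome had a median of 0.00.

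Of the 4 genes below the control, 3 lay in lower neighbourhoods. FANCC and RMI1 are on chromosome 9, where the median over 732 genes was -0.19. They differed by -0.21 and -0.09 after their neighbours' median was subtracted, and by -0.22 and -0.01 after their chromosome's median was. FANCG, on the same chromosome, turned from 0.00 to 0.19. RAD54B, on chromosome 8 among neighbours at -0.18, turned from -0.09 to 0.10. FANCF, on chromosome 11 among neighbours at 0.03, was at -0.45 after subtraction and remained the lowest of the 32.

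**Figure D5:**
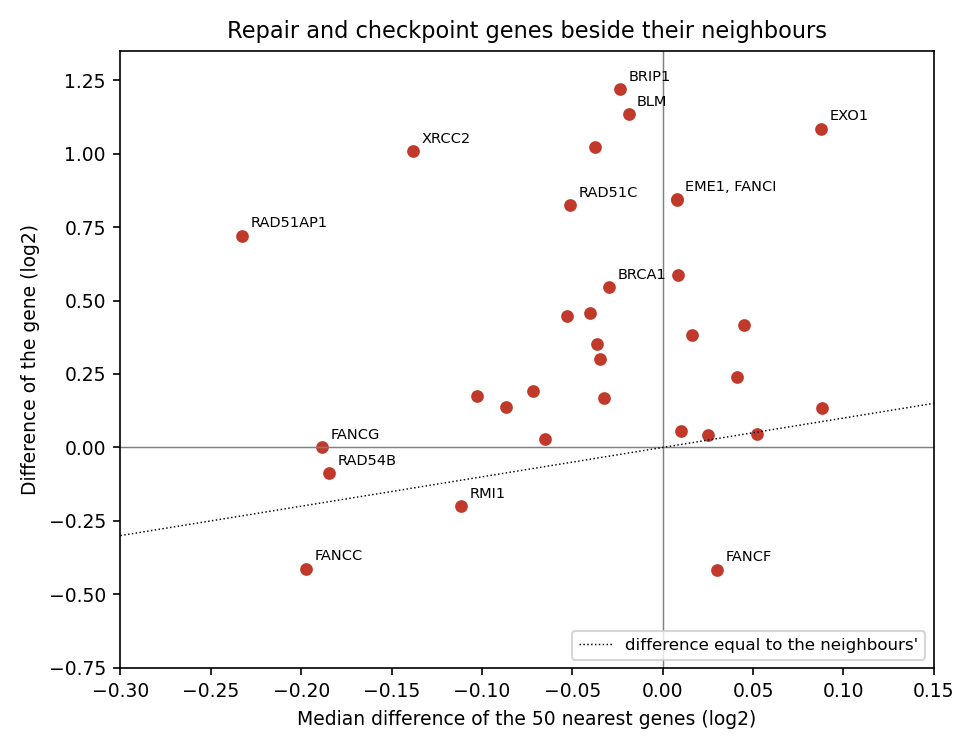
Difference of each of the 32 repair and checkpoint genes (log2, vertical axis) against the median over its 50 nearest measured neighbours (log2, horizontal axis), with a dotted line where both are equal. Most genes lie above the line, and FANCC, RMI1 and FANCF lie below it, with ATR just under it.

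The knockdown and the cell type were checked on the same arrays. FERMT2 was at 8.26 in the Kindlin-2 shRNA array and 9.37 in the control array, 2.16-fold lower. Markers of renal epithelial cells were bright, with PAX8 at 11.29 and 11.43 and KRT8 at 12.11 and 12.65. In that list CDH6 (1.88-fold) and CA12 (1.67-fold) were higher and PAX2 (1.58-fold) lower, and LRP2 was dim on both arrays. PAX2 differed by -0.56, short of 1.5-fold, with its neighbours' median subtracted, and by -0.66 with its chromosome's. All 5 leukocyte and all 5 endothelial markers with values were below 6.52 on both arrays, with mean values of 5.49 and 5.40 and of 5.07 and 5.21 in the Kindlin-2 shRNA and control arrays. Fibroblast and muscle markers had means of 6.18 and 6.35, and 5 of 7 reached 6.52 on at least 1 array. Among them PDGFRB and ACTA2 were 1.71-fold and 1.7-fold lower, and the stromal markers DCN and LUM were dim on both arrays.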

How the data were processed

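Total RNA from 2 ACHN cultures was hybridised to 1 Affymetrix Human Gene 1.0 ST array each, and groups were taken from the shRNA label. The deposited values are log2 expression, and per the submitters' processing notes the authors made them by RMA with Expression Console 1.4.1. RMA corrects background, makes arrays alike and summarises probes, so a shift common to most genes would be removed. For the library file and its build: not given in the sources used here. Detection calls were not used here.

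Of 33297 transcript clusters, 19460 had a single symbol in GEO's platform annotation, 1754 several and 12083 none. Symbols were updated through Entrez IDs to RefSeq (GRCh38.p14) for 19429. The brightest cluster stood for each of 18417 genes, of which 769 had several. Differences are Kindlin-2 shRNA minus control shRNA on the log2 scale, computed in Python 3.11.15 with pandas 2.3.3, and folds are 2 raised to their size. No filter was applied to the counts unless named. Counting and neighbour medians were tested on simulated data. RefSeq positions served only for neighbours and promoter windows.

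The members and lists were chosen with earlier results of these data known. Named are all members, FERMT2 and, from each further list, up to 3 genes per direction past 1.5-fold. Partners in complexes, the checks of markers and other genes outside this rule were chosen after their values were seen. With 1 array per group, the number of arrays limits the precision of each value. Alternatives were other fold thresholds, filters on dim genes, corrections between the arrays, the mean over clusters, and subtraction of autosome or neighbour medians.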

Additional observations from a re-analysis of the deposited data

Results flagged for a closer look

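A second transcript cluster of CLSPN, which the comparison did not use because it was dimmer, showed a signal above its control value. It differed by 1.46 on the log2 scale, or 2.75-fold, with 7.16 in the Kindlin-2 shRNA array and 5.70 in the control array. The brighter cluster differed by 1.02, so both clusters of this gene were higher, by different amounts. Why they differ was not tested.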

How the results depend on the processing

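The direction of the list was the same under each scaling. The alternatives left the median over all genes between -0.03 and 0.00, and a shift of that size could not turn a list median of 0.33. With the median difference of all clusters set to 0, a loess correction, a repeated quantile normalisation, the mean over clusters, or autosome or neighbour medians subtracted, 28 of the 32 genes were above 0. Under these alternatives 9 or 10 were at least 1.5-fold higher, none was 1.5-fold lower and the median lay between 0.31 and 0.35. Either filter on dim genes left 29 genes, of which 25 were above 0 and 9 at least 1.5-fold higher, with a median of 0.24. Among those 9, BRIP1, BLM and EME1 had control values under 6.52 and passed through their Kindlin-2 shRNA value. The filters are therefore not independent of the difference. The mean of the list was 0.38. The count did depend on the fold. At a threshold of 0.32 (log2), 16 genes were higher and 2 lower, and at 2-fold 5 were higher, by construction of the threshold. Of 198 values of single genes (32 genes and FERMT2 under 6 alternatives), 195 stayed on their side of 1.5-fold and none that had passed it changed sign. The other 3 were FANCM, at 0.56 with loess, 0.54 with quantile normalisation and 0.58 with neighbour medians subtracted. No paired analysis was possible because each group held 1 array and the labels give no replicate numbers.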
